A study of Arabidopsis thaliana with 6 samples.

Results

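Transcripts of 41 nuclear genes of photosynthesis were followed in root samples of Arabidopsis thaliana that had been kept for 1 h with or without added auxin. The genes were taken by locus identifier from the 32833 genes of the deposited count table. The rule itself names no measured value, but the list was chosen with earlier results of these data known. They comprise 4 genes of the small subunit of Rubisco (RBCS) with the Rubisco activase gene RCA, 4 genes of the Calvin cycle and carbonic anhydrase (GAPA, GAPB, PRK and CA1), 10 genes of the photosystem II antenna (LHCB), 4 genes of the photosystem I antenna (LHCA), 8 nuclear genes of photosystem II subunits (PSB) and 10 nuclear genes of photosystem I subunits (PSA).

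The treated seedlings were of the wild-type ecotype Col-0, 3 days after germination, and stood for 1 h in liquid 1/2 MS, a plant salt medium, to which the natural auxin IAA (indole-3-acetic acid) had been added at 1 µM. The mock seedlings were of the same ecotype, genotype and age and stood for the same time in the medium alone. Each group had 3 libraries, named here IAA 1 to IAA 3 and mock 1 to mock 3 after their labels, and each library came from a pool of about 100 roots. All plants had been raised in light, with a daily dark period, and the RNA was total RNA from which ribosomal RNA had been removed. The labels call the libraries biological replicates without saying whether the seedlings were grown and treated apart, so the p-values measure only the spread between these 6 libraries.

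In leaves, the antenna proteins bind chlorophyll and pass light energy to the photosystems, the photosystem subunits carry out the light reactions, and Rubisco and the Calvin cycle fix carbon dioxide. The proteins of the nuclear genes studied here are made in the cytosol and imported into plastids. There the small subunit of Rubisco and the photosystem subunits join subunits encoded by the plastid genome. Nuclear genes of photosynthesis are known for strong, joint expression in green cells in the light. Root plastids are mostly not green, root cells express the genes weakly, and auxin is known to hold back greening in roots.

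The libraries held 20808439 to 20984444 counts each. Per the tissue check, 16 of 16 root markers passed the filter on low counts, and their median ratio of the highest to the lowest library was 1.60. Among them, the root cap and endodermis genes SMB, SCR and CASP1 had at least 283 counts in every library. The table was tested over 19778 genes with edgeR's quasi-likelihood test, and 641 genes were higher and 196 lower with IAA at a Benjamini-Hochberg adjusted p under 0.05. All 41 photosynthesis genes passed the filter, and the least abundant, PSAG, had 479 counts over the 6 libraries. Levels are CPM, counts scaled to library totals of 1e+06 after normalization of those totals, and coordinates are those of the RefSeq annotation of TAIR10.1.

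Several of the genes are near copies of each other, which limits how reads can be assigned to one copy. The RBCS genes show this best, because RBCS1A lies on chromosome 1 and RBCS1B, RBCS2B and RBCS3B lie side by side on chromosome 5. Below are coding bases 10 to 129 of each, from the RefSeq TAIR10.1 genome and read on the minus strand. Among ungapped stretches of this length within a single exon, it was picked as the one that differs most from RBCS1A. It thus shows less likeness to RBCS1A than the whole coding sequence does. Capitals mark the bases that differ from RBCS1A at the same position. RBCS1A is from chr1:25049121-25049240, RBCS1B from chr5:15385027-15385146, RBCS2B from chr5:15381850-15381969 and RBCS3B from chr5:15378178-15378297.
RBCS1A: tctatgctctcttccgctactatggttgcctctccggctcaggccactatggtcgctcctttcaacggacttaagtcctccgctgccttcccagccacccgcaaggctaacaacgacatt
RBCS1B: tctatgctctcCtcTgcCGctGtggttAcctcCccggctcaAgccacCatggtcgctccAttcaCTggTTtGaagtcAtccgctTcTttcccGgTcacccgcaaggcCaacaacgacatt
RBCS2B: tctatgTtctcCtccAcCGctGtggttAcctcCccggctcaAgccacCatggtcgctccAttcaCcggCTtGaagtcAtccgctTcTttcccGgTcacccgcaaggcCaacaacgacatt
RBCS3B: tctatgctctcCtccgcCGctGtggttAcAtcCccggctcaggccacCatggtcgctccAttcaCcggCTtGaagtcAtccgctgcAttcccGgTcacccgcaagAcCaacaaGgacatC

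Each of the chromosome 5 copies differed from RBCS1A at 21 of these 120 bases, while RBCS1B and RBCS2B differed from each other at 5. Over the whole coding sequence RBCS1A was 90.4% to 90.6% identical to the other copies, and those were 96.7% to 97.3% identical to each other. RBCS1B and RBCS3B share an identical run of 230 bases, longer than a read of 100 bases. The antenna genes LHCB1.1, LHCB1.2 and LHCB1.3 were 95.6% to 96.4% identical and LHCB2.1 and LHCB2.2 were 92.9% identical, with shared runs of up to 119 and 137 bases. Values of these single copies are therefore uncertain as to the copy, and how reads that match several copies were counted is not known. In addition, 16 of the 41 genes overlap another annotated gene, and the strand setting of the counting is not given in the sources used here. The largest overlaps are those of PSAG, with 479 bases of a gene on the other strand, and of PSAE1, with 436.

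Summed over the 41 genes, the level was lower on average with IAA, but libraries of one group differed more than the groups did. The sum was 695.6 CPM in IAA 1, 2295 in IAA 2 and 929.5 in IAA 3, against 3976 in mock 1, 839.7 in mock 2 and 6182 in mock 3. The means were 1307 ± 864 CPM with IAA and 3666 ± 2685 CPM in mock (SD, n = 3 each). Mock 3 and mock 1 were thus high, IAA 2 was intermediate, and IAA 1, mock 2 and IAA 3 were low, so the groups overlapped. Mock 3 stood 7.36 times and mock 1 4.74 times above mock 2, and IAA 2 stood 3.30 times above IAA 1. As a share of all counts, the genes took 0.0704%, 0.229% and 0.0901% in the IAA libraries and 0.405%, 0.0851% and 0.613% in the mock libraries. In such bulk samples, fewer cells of a type and less RNA per cell cannot be told apart.

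**Figure D1:**
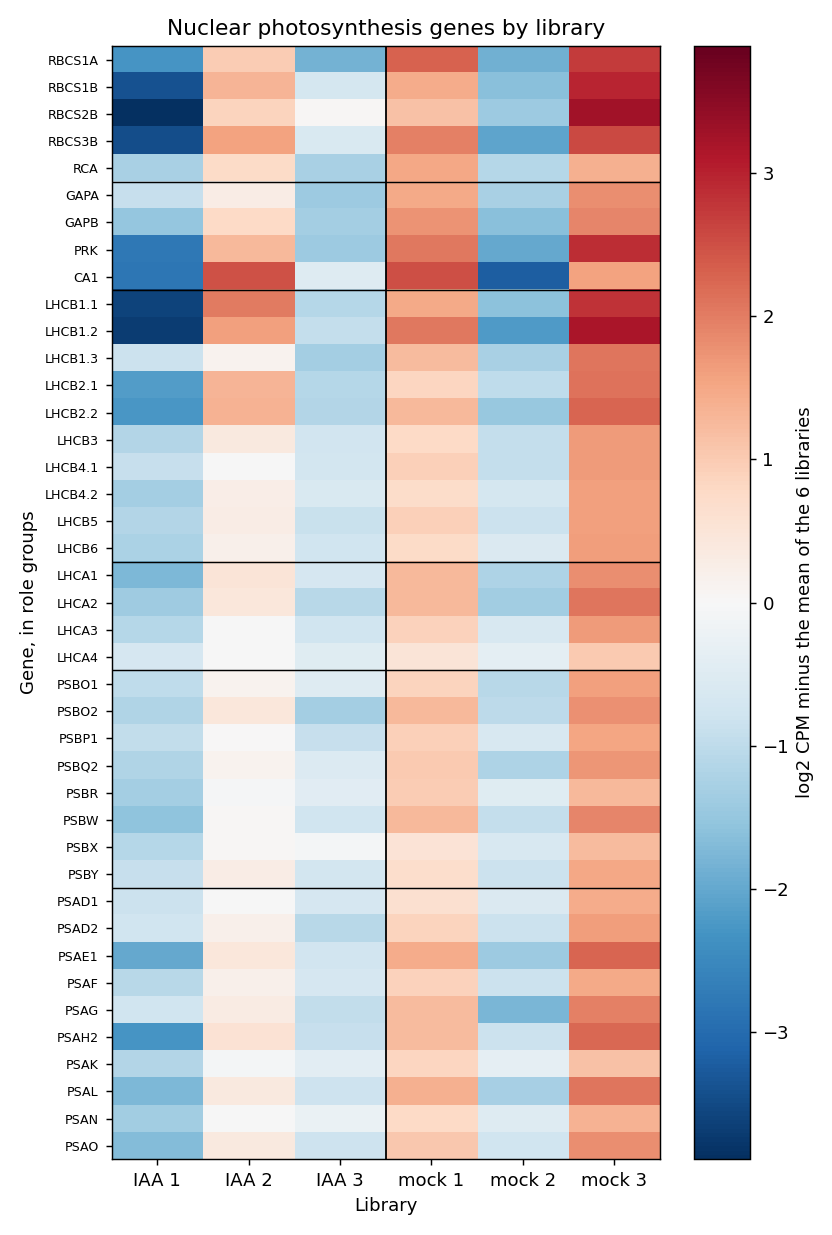
Level of each of the 41 genes (rows, in role groups parted by lines) in each library (columns, IAA left, mock right), as log2 CPM minus the mean of the gene's 6 libraries, on a colour scale from blue (low) to red (high). Mock 3 is the highest library for 39 of 41 genes, and the columns of IAA 1, IAA 3 and mock 2 are blue or near white in nearly every row.

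No gene of the set was called in edgeR's quasi-likelihood test. The SEs of the log2 changes ran from 0.36 for LHCA4 to 1.57 for LHCB1.2, so a lack of calls does not show a lack of change. Of 41 genes, 0 passed at an adjusted p under 0.05, where 4.23% of all tested genes did so in either direction, 3.24% as higher and 0.991% as lower. The adjusted p-values of the set ran from 0.25 for PSAK to 0.932 for CA1. DESeq2 called 1 gene, PSAK, as lower, where it called 2.46% of its genes lower, and limma-voom called 0. The authors' deposited table gives the same single gene as lower, with a log2 change of -1.14 and an adjusted p of 0.0221, where 2.49% of the genes in that table are lower at the same limit. At an unadjusted p under 0.05, 1 of the 41 was lower in edgeR against 7.57% of all tested genes. Without IAA 2, 12 were lower at this limit, against 5.36% of all tested genes, and without mock 2, 32 were, against 7.41%, but 0 passed adjustment in either case. Without IAA 1, IAA 3, mock 1 or mock 3, 0 were lower at this limit. IAA 2 had the highest sum with IAA and mock 2 the lowest in mock. Leaving out either one thus moves the groups apart by choice of library.

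The estimated log2 changes all pointed the same way. All 41 were below 0, as were 51.7% of all tested genes, and 38 were at -1 or lower, as were 3.08% of all tested genes. The median log2 change, IAA over mock, was -1.38 for the set and -0.01 for all tested genes. The range was from -2.26 for RBCS1A to -0.45 for CA1. In 0 of the 41 genes did the IAA and mock libraries separate without overlap, while 22.1% of all tested genes did so, 9.83% with IAA as the lower group. The 41 genes are not replicates of the treatment, since all were read from the same 6 libraries.

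The spread between libraries of one group was wide for every gene of the set. Within the mock group the highest library exceeded the lowest by a median of 7.12 times over the 41 genes and 1.25 times over all tested genes. Within the IAA group these medians were 3.06 and 1.261 times. The biological coefficient of variation fitted by edgeR, the relative spread between libraries beyond counting error, had a median of 0.649 in the set and 0.158 over all tested genes. In each of the 41 genes it was above the percentile 90.3 of all tested genes.

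The order of the libraries was shared by most of the set. Mock 3, mock 1 and IAA 2 held the first 3 places in this order in 36 of 41 genes, and in 2.37% of all tested genes. Mock 3 was the highest library in 39 of 41 genes, and mock 1 in the other 2, RCA and CA1. The lowest library was IAA 1 in 30 genes, mock 2 in 6 and IAA 3 in 5. Of the low libraries, mock 2 was above IAA 1 in 32 genes and above IAA 3 in 15.

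Among the Rubisco genes, RBCS1A (AT1G67090), which encodes the most abundant small subunit, spanned 30.3 CPM in IAA 1, 297 in IAA 2 and 41.8 in IAA 3, against 740.8 in mock 1, 41.1 in mock 2 and 984.7 in mock 3. IAA 1, mock 2 and IAA 3 were at a similar low level, and mock 3 was 23.9 times mock 2. The log2 change was -2.26 (SE 1.38, edgeR quasi-likelihood adjusted p = 0.487), well within the spread between libraries. RBCS3B (AT5G38410), the second small subunit gene by level, had 4.58, 150, and 33.7 CPM in IAA 1 to IAA 3, against 195.3, 12.2 and 296.2 CPM in mock 1 to mock 3. Its IAA 2 level was 32.7 times that of IAA 1, and the groups overlapped (log2 change -1.42, SE 1.46, edgeR adjusted p = 0.715).

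RBCS2B showed the widest range of the set, 142 times between mock 3 with 980 counts and IAA 1 with 7, and RBCS1B spanned 83.1 times. Genes described beside the most abundant and the best separated of each role group, such as these, were picked after their values were seen. RCA (AT2G39730), the chaperone that frees Rubisco of inhibitory sugar phosphates, varied less, 6.84 times. It had 32.7, 130 and 32.1 CPM in the IAA libraries and 219 in mock 1, 36.0 in mock 2 and 201 in mock 3.

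In the Calvin cycle, GAPA (AT3G26650) and GAPB (AT1G42970) encode the chloroplast glyceraldehyde-3-phosphate dehydrogenase subunits. GAPA was at 11.7, 26.9 and 8.21 CPM in IAA 1 to IAA 3, against 60.7, 9.20 and 76.2 CPM in mock 1 to mock 3 (log2 change -1.64, SE 0.85, edgeR adjusted p = 0.402). GAPB was at 6.42, 31.4 and 7.32 CPM in the IAA libraries, against 61.8, 5.99 and 68.4 CPM in the mock libraries (log2 change -1.59, SE 1.04, edgeR adjusted p = 0.521). For both genes mock 2 lay among the IAA libraries, and it was the lowest of all 6 for GAPB. PRK, which makes the carbon dioxide acceptor ribulose bisphosphate, spanned 50.8 times. CA1, the chloroplast carbonic anhydrase gene, departed from the common order. It had 0.945, 36.3 and 4.67 CPM in the IAA libraries and 37.0, 0.708 and 19.4 CPM in the mock libraries, so that IAA 2 and mock 1 were alike and above mock 3.

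Of the photosystem II antenna genes, LHCB1.3 (AT1G29930, CAB1) was the most abundant, with 107.7, 208 and 76.3 CPM in IAA 1 to IAA 3, against 445.7, 79.1 and 811.9 CPM in mock 1 to mock 3. Mock 2 lay between IAA 3 and IAA 1, and the log2 change of -1.77 had an SE of 0.86 (edgeR adjusted p = 0.37). LHCB5 (AT4G10340), a minor antenna protein between the trimers and the reaction centre, had 28.6, 78.5 and 35.0 CPM with IAA and 121.6, 35.9 and 193.9 CPM in mock (log2 change -1.31, SE 0.69, edgeR adjusted p = 0.409). LHCB4.1 (AT5G01530), another minor antenna protein, had 33.3, 60.6 and 38.0 CPM with IAA and 116.9, 32.5 and 193.4 CPM in mock (log2 change -1.38, SE 0.64, edgeR adjusted p = 0.345). Both had mock 2 at the level of IAA 1 and IAA 3. The 10 LHCB genes had log2 changes from -1.89 to -1.05, and their ratios of the highest to the lowest library ran from 5.95 for LHCB4.1 to 117 for LHCB1.2.

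The photosystem I antenna gene LHCA4 (AT3G47470) varied least of the 41, with 76.7, 120.6 and 86.3 CPM in IAA 1 to IAA 3, against 170.5, 93.4 and 243 CPM in mock 1 to mock 3. Mock 2 exceeded IAA 1 and IAA 3 but not IAA 2 (log2 change -0.84, SE 0.36, edgeR adjusted p = 0.298). LHCA3 (AT1G61520) had 27.9, 59.2 and 34.9 CPM with IAA, against 110.9, 38.7 and 191 CPM in mock, with the same order of libraries (log2 change -1.48, SE 0.61, edgeR adjusted p = 0.291). LHCA1 and LHCA2 spanned 11.9 and 11.1 times between their highest and lowest libraries.

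Among photosystem II subunits, PSBO1 (AT5G66570) encodes a protein that stabilises the manganese cluster of the oxygen-evolving complex. It had 47.0, 103 and 66.1 CPM in IAA 1 to IAA 3, against 172.8, 44.2 and 283 CPM in mock 1 to mock 3 (log2 change -1.21, SE 0.68, edgeR adjusted p = 0.44). Mock 2 was the lowest library. PSBP1 (AT1G06680), also of the oxygen-evolving complex, had 32.1, 62.4 and 33.4 CPM with IAA and 116.4, 39.8 and 180.9 CPM in mock (log2 change -1.40, SE 0.58, edgeR adjusted p = 0.298). PSBR (AT1G79040), a small subunit that helps to bind PSBP, had 22.0, 52.9 and 40.6 CPM with IAA and 109 in mock 1, 39.3 in mock 2 and 132 in mock 3 (log2 change -1.28, SE 0.52, edgeR adjusted p = 0.29). For PSBP1 and PSBR the mock 2 level lay below that of IAA 2. The 8 PSB genes spanned 5.12 to 11.1 times, the narrowest range of highest to lowest library of any role group here with more than 4 genes.

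Among photosystem I subunits, PSAF (AT1G31330), which docks the electron donor plastocyanin, had 24.5, 59.5 and 32.7 CPM in IAA 1 to IAA 3, against 96.1, 29.0 and 142.7 CPM in mock 1 to mock 3 (log2 change -1.199, SE 0.63, edgeR adjusted p = 0.406). PSAL (AT4G12800), at the site where antenna trimers dock, had 8.69, 38.0 and 16.8 CPM with IAA and 75.5, 11.8 and 123 CPM in mock (log2 change -1.73, SE 0.93, edgeR adjusted p = 0.426). Both had mock 2 among the low libraries. PSAK (AT1G30380), a subunit at the antenna side, had 17.5, 36.5 and 28.5 CPM with IAA, against 67.9, 30.1 and 83.7 CPM in mock. Its mock 2 level exceeded IAA 1 and IAA 3 and stayed below IAA 2. The PSAK log2 change was -1.14 (SE 0.43), with an adjusted p of 0.25 in edgeR and 0.0222 in DESeq2, so the call rests on the choice of test. The remaining 7 PSA genes were all lower on average with IAA and uncalled in both.

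**Figure D2:**
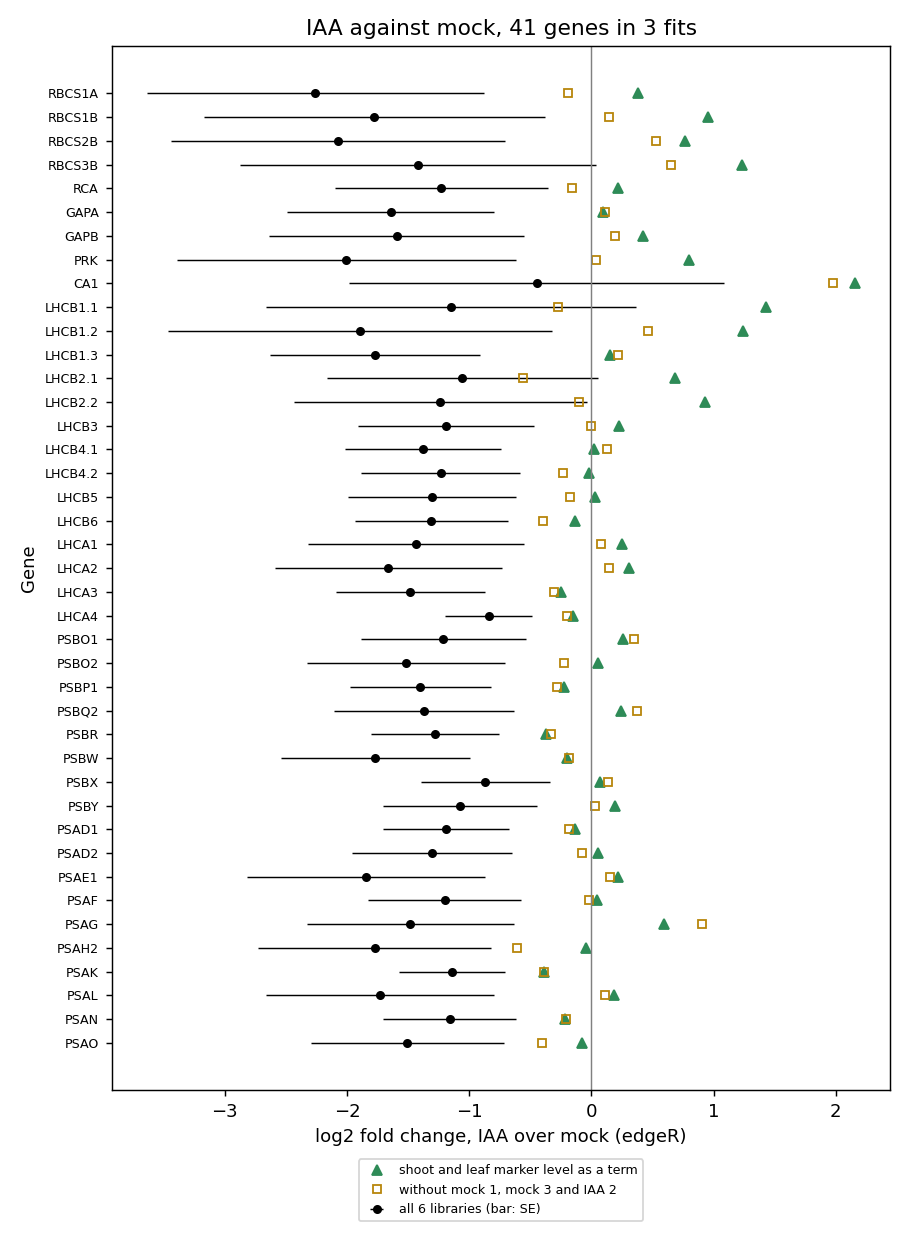
Log2 fold change of each of the 41 genes, IAA over mock, from edgeR. Black points with bars give the estimate and SE from all 6 libraries and lie between -2.26 and -0.45, green triangles the estimate with the shoot and leaf marker level as a term, and open squares the estimate without mock 1, mock 3 and IAA 2, the 3 libraries with the highest sums of these genes, with medians of 0.19 and -0.02.

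The make-up of the photosynthesis transcripts differed between libraries with a high and a low sum. Rubisco and activase genes took 26.9% of the sum in IAA 2 against 30.2% in mock 1 and 26.3% in mock 3, but 9.93% in IAA 1 and 12.9% in IAA 3 against 11.3% in mock 2. The 4 RBCS genes alone took 5.24%, 21.2% and 9.49% in the IAA libraries and 24.7%, 7.05% and 23.1% in the mock libraries. Genes of the LHCA group took the opposite course, with 19.0%, 12.9% and 18.1% in the IAA libraries and 12.1%, 19.8% and 12.1% in the mock libraries. The PSB and PSA shares were likewise larger in IAA 1, IAA 3 and mock 2 than in the other libraries. The LHCB share stayed between 26.4% and 32.2%, with no such split. LHCA4 alone made up 11.0%, 5.26% and 9.29% of the sum in the IAA libraries and 4.29%, 11.1% and 3.94% in the mock libraries. A share is fixed by all the other shares, so these are relative statements.

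**Figure D3:**
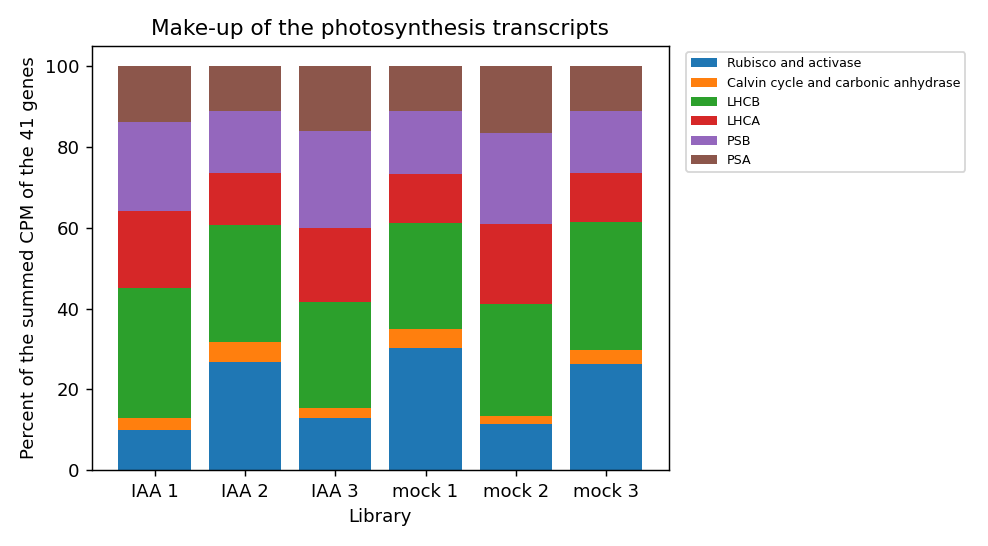
Share of each role group in the summed CPM of the 41 genes (stacked bars, percent) for each library, IAA left and mock right. Rubisco and activase genes take 26.3% to 30.2% in IAA 2, mock 1 and mock 3 and 9.93% to 12.9% in the other libraries.

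Copies of one family also shifted against each other. LHCB1.3 made up 97.3%, 61.6% and 80.0% of the sum of LHCB1.1, LHCB1.2 and LHCB1.3 in IAA 1 to IAA 3, against 76.4%, 88.9% and 71.9% in mock 1 to mock 3. The share of LHCB1.3 was thus larger in each of the 3 libraries with a low photosynthesis sum than in any of the others. LHCB1.1 and LHCB1.2 had 1.18 and 1.84 CPM in IAA 1, where LHCB1.3 had 107.7. RBCS1A made up 83.3%, 61.0% and 47.4% of RBCS in the IAA libraries and 75.5%, 69.5% and 69.1% in the mock libraries, with no such split. These splits rest on reads assigned between near copies.

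Per kilobase of exon, so that genes can be compared, RBCS1A had the highest mean level over the 6 libraries, 281 CPM per kb, before LHCB1.3 with 234, LHCA4 with 102, PSBR with 84.3 and RBCS3B with 81.8. PSAG had the lowest, 4.89. In IAA 1 the order differed. LHCB1.3 came first with 87.6 CPM per kb, LHCA4 followed with 59.3, and RBCS1A had place 6 with 23.9. In mock 3, RBCS1A had 777 CPM per kb and LHCB1.3 had 660. With the coding length in place of the exon length, RBCS1A and LHCB1.3 kept places 1 and 2, and LHCA4 had place 4 behind RBCS3B.

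Short sequence elements were searched upstream of the annotated starts. They were the G-box CACGTG and the I-box GATAAG, which are known from light-regulated promoters, the element CCAATC, and the auxin response element TGTCTC. Both strands were read from 250 bases before to 50 bases after each start, and overlaps between motifs were allowed. Printed next are the 250 bases before the start of the genes with the widest library range, RBCS2B and LHCB1.2, and the narrowest, LHCA4 and PSAK. They are given on the strand of the gene, and capitals mark motif matches. RBCS2B is from chr5:15382072-15382321 and LHCB1.2 from chr1:10473503-10473752, both minus strand. LHCA4 is from chr3:17495034-17495283, minus strand, and PSAK from chr1:10721933-10722182, plus strand, all in TAIR10.1 from RefSeq.
RBCS2B: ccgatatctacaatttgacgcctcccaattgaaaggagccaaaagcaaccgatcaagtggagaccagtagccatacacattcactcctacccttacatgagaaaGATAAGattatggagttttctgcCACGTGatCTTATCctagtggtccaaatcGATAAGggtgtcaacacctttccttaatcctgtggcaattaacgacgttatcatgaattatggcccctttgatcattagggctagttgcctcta
LHCB1.2: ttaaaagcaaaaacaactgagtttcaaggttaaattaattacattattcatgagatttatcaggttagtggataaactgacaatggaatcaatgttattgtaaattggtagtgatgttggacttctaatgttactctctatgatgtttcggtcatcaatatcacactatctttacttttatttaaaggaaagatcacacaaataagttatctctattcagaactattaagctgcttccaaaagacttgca
LHCA4: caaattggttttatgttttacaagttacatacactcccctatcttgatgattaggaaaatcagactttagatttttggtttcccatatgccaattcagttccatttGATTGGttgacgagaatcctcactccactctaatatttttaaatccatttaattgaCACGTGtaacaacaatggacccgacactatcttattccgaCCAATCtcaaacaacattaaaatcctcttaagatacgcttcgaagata
PSAK: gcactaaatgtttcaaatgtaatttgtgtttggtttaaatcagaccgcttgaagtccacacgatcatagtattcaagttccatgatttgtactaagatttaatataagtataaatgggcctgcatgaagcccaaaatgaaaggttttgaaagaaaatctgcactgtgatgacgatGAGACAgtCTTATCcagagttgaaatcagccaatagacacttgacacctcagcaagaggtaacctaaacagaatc

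RBCS2B holds 1 G-box and 3 I-boxes in this stretch, LHCA4 holds 1 G-box and 2 CCAATC elements, PSAK holds 1 I-box beside 1 auxin response element, and LHCB1.2 holds none of these letters. In the 300-base window 10 of the 41 genes held none of the motifs, among them RBCS1A, RBCS3B and LHCB1.2. The annotated starts of these named genes lie 418, 336 and 256 bases before their coding starts. The window leaves out most of the stretch between, so a lack of matches in it does not show that their promoters lack the motifs. The G-box was present in the 300-base window in 12 of the 41 genes (29.3%), against 7.68% of 27444 promoters. The I-box was present in 19 (46.3%), against 14.6% of promoters, and CCAATC in 13 (31.7%), against 12.3%. The auxin response element was present in 7 (17.1%), close to the 14.2% of all promoters. The median ratio of the highest to the lowest library was 8.04 for the genes with a G-box and 10.6 for those without, and 7.52 for the genes with an I-box and 10.8 for those without. A match is a stretch of letters and was not tested as a site. For 300 bases before the coding start, a window added after the data were seen, the shares of the 41 genes were 39.0% for the G-box and 65.9% for the I-box, against 6.28% and 15.4% of promoters.

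Other genes of photosynthesis behaved partly like the set, with a narrower spread between libraries. Of 34 further nuclear genes of the light reactions and the Calvin cycle, 33 were tested and 0 were called in edgeR, with a list median of -1.15 on the log2 scale. At an unadjusted p under 0.05, 5 were lower and 0 higher, where 7.57% of all tested genes were lower. DESeq2 called 1 lower, the photosystem I subunit gene PSAE2, and limma-voom called 0. Mock 3 was the highest library in 30 of the 33, and mock 3, mock 1 and IAA 2 held the first 3 places in this order in 22. The median ratio of the highest to the lowest library was 4.175, against 9.28 in the set. In 3 genes, PSAE2, TIM and CP12-2, all IAA libraries were below all mock libraries, while 9.83% of all tested genes did so. The most abundant genes of the list had close group means. The transketolase gene TKL1 had 485.7 ± 32.6 CPM with IAA and 475 ± 86.9 CPM in mock, and the triose phosphate isomerase gene TIM had 215 ± 15.9 CPM with IAA and 243 ± 8.20 CPM in mock (SD, n = 3). CP12-2, a regulator of the Calvin cycle with the smallest p of the list, had 0.530 ± 0.0449 CPM with IAA and 1.24 ± 0.395 CPM in mock (edgeR adjusted p = 0.113).

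Of 13 photorespiration genes, which salvage the side product of Rubisco, 0 rose and 1 fell in edgeR, where 0.991% of all tested genes fell. DESeq2 called 2 lower, GOX2 and SHM1, where it called 2.46% of its genes lower. The glycolate oxidase gene GOX2 (AT3G14415) fell to 35.9, 23.8 and 18.7 CPM in IAA 1 to IAA 3, against 78.3, 60.0 and 74.3 CPM in mock 1 to mock 3. All IAA libraries were below all mock libraries, which differs from the order seen in the 41 genes (log2 change -1.44, SE 0.24, edgeR adjusted p = 0.021). Its neighbour and close copy GOX1 followed the common order, with 1.04, 20.8 and 3.05 CPM with IAA and 37.5, 2.31 and 37.7 CPM in mock, so the split of reads between the copies is uncertain. The GOX2 call was lost without IAA 2, mock 1 or mock 3. The abundant peroxisomal catalase gene CAT2 had 400.3 ± 86.2 CPM with IAA and 392 ± 59.2 CPM in mock, and the glycerate kinase gene GLYK had 334 ± 101 CPM with IAA and 334 ± 56.0 CPM in mock (SD, n = 3).

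Of 16 chlorophyll synthesis genes tested, 0 rose and 1 fell in edgeR, where 0.991% of all tested genes fell. At an unadjusted p under 0.05, 6 were lower, against 7.57% of all tested genes. The IAA and mock libraries separated without overlap in 6 of the 16, against 22.1% of all tested genes. DESeq2 called 3 of 18 lower, CHLD, CHLI1 and CHLM, where it called 2.46% of its genes lower, and limma-voom called 0. CHLD (AT1G08520), a subunit of magnesium chelatase, which opens the chlorophyll branch, fell to 18.5, 19.6 and 17.9 CPM with IAA, against 38.2, 24.7 and 32.5 CPM in mock (log2 change -0.77, SE 0.16, edgeR adjusted p = 0.0432). The groups did not overlap, but the call was lost with limma-voom, with the replicate number as a block, and without any library other than mock 2. HEMA1, the glutamyl-tRNA reductase gene at the entry of the pathway, had 63.2 ± 6.84 CPM with IAA and 70.9 ± 4.35 CPM in mock, and GSA1, of the next step, had 51.6 ± 3.16 CPM with IAA and 61.3 ± 6.07 CPM in mock (SD, n = 3).

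Of 9 regulators of greening, 7 were tested, and 0 rose and 2 fell in edgeR, where 0.991% of all tested genes fell. At an unadjusted p under 0.05, 2 were also higher, where 1954 of the 19778 tested genes were. They were the light-signalling factor gene HYH (log2 change 0.49) and the plastid sigma factor gene SIG5 (log2 change 0.48). With limma-voom, or without IAA 2, IAA 3 or mock 1, 0 were higher at this limit. GLK2 (AT5G44190), a transcription factor that drives antenna and chlorophyll genes, fell to 11.2, 10.5 and 8.75 CPM in IAA 1 to IAA 3, against 17.9, 19.1 and 21.4 CPM in mock 1 to mock 3. All mock libraries were alike and above all IAA libraries (log2 change -0.94, SE 0.14, edgeR adjusted p = 0.0102). GNC (AT5G56860), a GATA factor that promotes chloroplast development, fell to 0.378, 0.241 and 0.393 CPM with IAA, against 2.58, 1.93 and 5.58 CPM in mock (log2 change -3.29, SE 0.50, edgeR adjusted p = 0.0115). Its counts were low, 8, 5 and 8 with IAA and 55, 41 and 116 in mock, and the call was lost without IAA 2. Mock 2, low for the photosynthesis genes, was thus not low for GLK2 and lay above every IAA library for GNC. GLK2, GNC and other genes of this list were chosen with earlier results of these data known. HY5, a light-signalling factor, had 27.7, 36.9 and 56.5 CPM with IAA and 29.5, 41.0 and 38.1 CPM in mock, and SIG2, a plastid sigma factor gene, had 13.4 ± 2.66 CPM with IAA and 17.8 ± 4.13 CPM in mock.

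**Figure D4:**
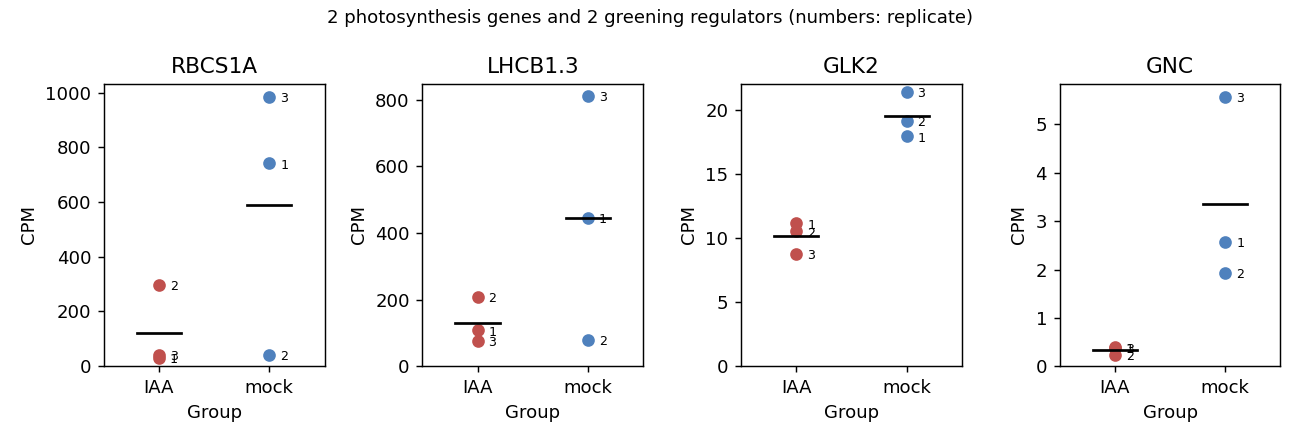
CPM of RBCS1A, LHCB1.3, GLK2 and GNC in each library (points, numbered by replicate) and the group mean (line), IAA left and mock right, each panel on its own scale from 0. For RBCS1A and LHCB1.3 mock 2 lies among the IAA libraries, and for GLK2 and GNC all mock libraries lie above all IAA libraries.

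Plastid-encoded photosynthesis genes had few counts in any library. The 15 genes of this list had 35, 82 and 146 counts in all in the IAA libraries and 71, 22 and 175 in the mock libraries. RBCL, the large subunit of Rubisco, had between 3 and 13 counts in any library. Only ATPB and PSAB passed the filter. In edgeR, DESeq2 and limma-voom 0 were called, and in edgeR 0 passed an unadjusted p under 0.05. ATPB, of the plastid ATP synthase, had 1.05 ± 0.504 CPM with IAA and 1.205 ± 1.01 CPM in mock, and PSAB, of the photosystem I core, had 0.389 ± 0.298 CPM with IAA and 0.303 ± 0.410 CPM in mock (SD, n = 3).

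The sum of shoot and leaf markers had the same 3 libraries on top as the sum of the photosynthesis genes. The 21 markers, among them stomatal, leaf polarity and shoot epidermis genes, summed to 24.4, 37.4 and 18.3 CPM in IAA 1 to IAA 3, against 79.2, 19.9 and 184 CPM in mock 1 to mock 3. Mock 3, mock 1 and IAA 2 were again the 3 highest libraries. Of the 9 markers tested in edgeR, 6 had this order, against 2.37% of all tested genes. The marker sum of IAA 2 was less far above that of IAA 1 than in the 41 genes, where the ratio was 3.30. The number of markers with 0 counts was 13, 5 and 6 in the IAA libraries and 3, 5 and 2 in the mock libraries, and the shoot meristem gene CLV3 had 0 in every library. Of the 9 tested, 0 were called in edgeR or limma-voom, and mock 3 was the highest library for all 9. In edgeR 1 was lower at an unadjusted p under 0.05, against 7.57% of all tested genes. DESeq2 gave a p to 20 of the markers and called 0. Without mock 2, the mock library with the lowest marker sum, 10 of 11 were lower at the unadjusted limit, against 7.41% of all tested genes. The gene FAMA was then called. With any other library left out, 1 to 4 were lower at that limit and 0 were called. The most abundant were LTP1, a lipid transfer protein gene, with 128, 248 and 70 counts with IAA and 559, 125 and 1152 in mock, and CUT1, a cuticle wax gene, with 119, 172 and 123 with IAA and 366, 100 and 1025 in mock. All 21 markers together had 517, 774 and 373 counts with IAA and 1689, 421 and 3828 in mock, so LTP1 and CUT1 weigh heavily in the sum. MYB60, a guard cell factor with the smallest p, had 10, 17 and 7 counts with IAA and 30, 25 and 30 in mock, so mock 2 was close to the other mock libraries for it. The leaf polarity gene FIL, picked after its values were seen, had 0, 10 and 1 counts with IAA and 43, 1 and 85 in mock. Several of these markers are also expressed in other young tissues.

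**Figure D5:**
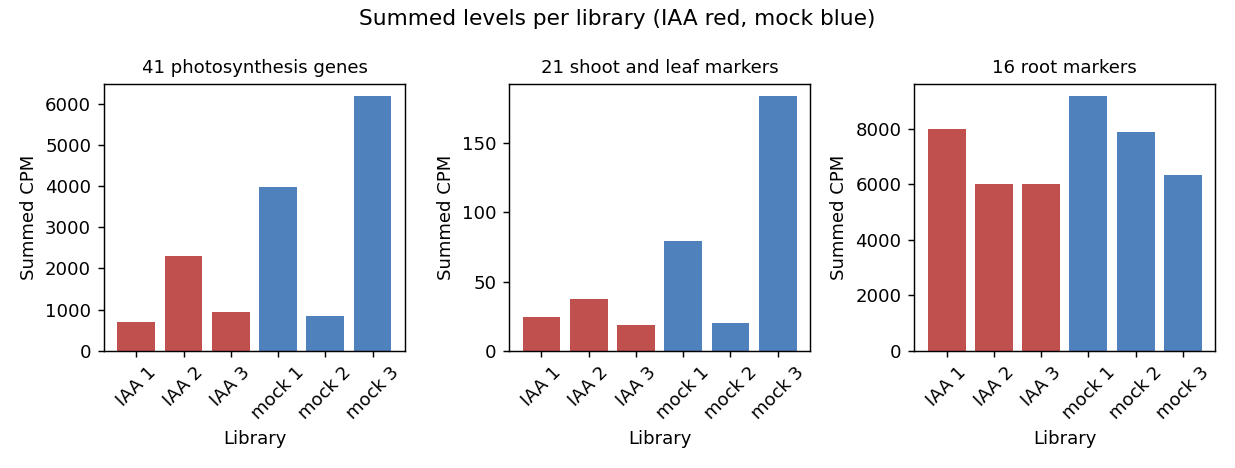
Summed CPM per library for the 41 photosynthesis genes, the 21 shoot and leaf markers and the 16 root markers (bars from 0, IAA red and left, mock blue and right). The first and the second panel both have mock 3 highest, then mock 1, then IAA 2. The root markers lie between 6008 and 9163 CPM, and most of their sum is the gene PYK10.

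With the log2 marker level as a term in the edgeR fit, the median log2 change of the 41 genes was 0.19 and 12 of 41 were below 0. Of the 41, 0 were called, where 2.27% of all tested genes were. At an unadjusted p under 0.05, 0 of the 41 passed, against 16.8% of all tested genes. The fit was added after the data were seen, and the marker level and the 41 genes have the same 3 libraries on top. Without those libraries, mock 1, mock 3 and IAA 2, the median was -0.02, 22 of 41 were below 0, and 0 passed an unadjusted p under 0.05, against 5.98% of all tested genes. The libraries were picked by their marker counts, but they are also the 3 with the highest sums of the 41 genes. A median near 0 among the 3 low libraries is thus fixed by that choice and is a description only. It rests on 1 mock library, assumed to vary like the others, and 0 of all genes were called in it. With the marker term GNC was still called lower (log2 change -2.59, SE 0.43, edgeR adjusted p = 0.0402), and the GLK2, GOX2 and CHLD calls were lost, as were those of the root markers EXPA7 and WOX5.

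Genes of seed reserves and of the root were looked at as further tissue lists. Of 13 seed storage and reserve genes, 4 were tested in edgeR and limma-voom and 12 had a p in DESeq2, and 0 were called in any of these. In edgeR 1 was lower at an unadjusted p under 0.05, where 7.57% of all tested genes were. PCK1 and ICL, of the use of seed reserves, had 661 ± 195 and 68.0 ± 36.9 CPM with IAA, and 670.3 ± 9.65 and 73.2 ± 34.5 CPM in mock (SD, n = 3), and the oleosin gene OLEO4 had 21, 3 and 7 counts with IAA and 49, 57 and 15 in mock. Of 16 root markers, 2 rose and 0 fell in edgeR, where 3.24% of all tested genes rose and 0.991% fell. Those that rose were EXPA7 of root hairs (log2 change 0.61, SE 0.09, edgeR adjusted p = 0.00828) and WOX5 of the quiescent centre (log2 change 0.93, SE 0.17, edgeR adjusted p = 0.0272). The EXPA7 call was lost without mock 1, and the WOX5 call with the replicate number as a block and without IAA 2, IAA 3, mock 1 or mock 2. The most abundant, the glucosidase gene PYK10 and the Casparian strip gene CASP1, had 6022 ± 1168 and 162 ± 38.2 CPM with IAA, and 7238 ± 1426 and 158 ± 8.65 CPM in mock (SD, n = 3). The libraries followed the order mock 3, mock 1, IAA 2 in 0 of the 16 root markers and 0 of the 4 seed genes tested. Since only 2.37% of all tested genes have this order, little can be read from these counts.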

How the data were processed

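RNA was sequenced from 3 IAA and 3 mock root libraries in paired reads of 100 bases. The authors deposited a table of raw read counts per gene, with both runs of each library already combined, and 0 of its sample columns were left unused. The submitters' processing notes name FastQC, STAR 2.5.2b, SAMtools, DESeq2 1.26.0 and the build TAIR10, while neither the counting tool nor the annotation or strand setting is given in the sources used here. The authors also deposited a comparison whose columns, per the file headers, are a mean normalized signal, a log2 fold change with its standard error, a Wald score, a p-value and an adjusted p-value.

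The counts were filtered with filterByExpr, scaled with TMM and tested with edgeR 4.0.16 under R 4.3.3, using its robust quasi-likelihood F test on group alone, and adjusted by Benjamini-Hochberg over all 19778 tested genes, at a threshold of 0.05. The SE of a log2 change is its size divided by the square root of F. The procedure was tested on simulated data. Alternatives were RLE factors, library totals, other filters, DESeq2 1.42.0, limma-voom (limma 3.58.1), the replicate number as a block, a threshold of 0.01, a 2-fold minimum and leaving out each library. The library totals were about equal, and precision was set by the spread between libraries more than by counting error.

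The 41 genes and the other lists were chosen with earlier results of these data known. Genes named were, per role group, the 2 with the highest mean CPM, the 1 with the smallest p and any called gene, and the same per list, and others are said to be picked later. Sequences and coordinates came from RefSeq TAIR10.1.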

Additional observations from a re-analysis of the deposited data

How the results depend on the processing

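Of the 41 photosynthesis genes, 0 were called higher under any alternative, and 0 were called lower except with DESeq2, which called 1, PSAK. At an adjusted p under 0.01 and with a 2-fold minimum this was fixed in advance, since 0 were called with the main settings. Over all genes, 641 were higher and 196 lower, against 1085 and 549 with DESeq2, 272 and 39 at an adjusted p under 0.01, and 381 and 92 with a 2-fold minimum. Leaving out each library in turn gave 260 to 839 higher and 47 to 433 lower. In the other lists 2 were higher and 4 lower, against 8 lower with DESeq2, 1 and 0 at 0.01, 0 and 2 with a 2-fold minimum, and 0 to 2 and 1 to 9 with each library left out. The median log2 change of the 41 genes ranged from -2.22 to -0.76 with each library left out, and the log2 ratio of their sums, -1.49 with all libraries, from -2.17 to -0.88. The correlations of same-numbered libraries' deviations from their group means were 0.09, -0.45 and 0.20 over 19778 genes, and IAA 1 correlated best with mock 2 (0.33). Deviations within a group sum to 0, which forces correlations of mixed sign. These values therefore cannot decide whether libraries of one replicate number belong together. With the replicate block, 0 of the 41 genes were called, 462 and 149 genes were higher and lower over all, and 1 gene of the other lists was higher and 3 were lower.

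Of the alternatives added after the data were seen, the shoot and leaf marker term gave 346 higher and 103 lower over all genes, 0 and 1 in the other lists, and a median of 0.19. Without mock 1, mock 3 and IAA 2 there were 0 and 0 over all genes (781 and 429 before p-values were adjusted) and 0 and 0 in the other lists, a median of -0.022 and a log2 ratio of sums of -0.0474, from 3 libraries. The log2 change turned positive, with no call, under the marker term for RBCS1A (0.38), RBCS3B (1.23), GAPA (0.0938), GAPB (0.42), LHCB1.3 (0.15), LHCB5 (0.0284), LHCB4.1 (0.0233), PSBO1 (0.26), PSAF (0.0457) and PSAL (0.19). Without the 3 libraries, which also have the highest sums of these genes so that values near 0 follow from the choice, it was positive for RBCS3B (0.65), GAPA (0.11), GAPB (0.20), LHCB1.3 (0.22), LHCB4.1 (0.13), PSBO1 (0.35) and PSAL (0.11). For the 15 named photosynthesis genes, 237 other values kept their direction and their side of the threshold, and PSAK in DESeq2 did not. The cause was not tested. The 237 include values for the stricter threshold and for the minimum fold change, which reuse the main estimate. A gene uncalled with the main settings cannot be called under these stricter rules. Those values were thus fixed in advance and say nothing about robustness. Depth limits the low genes: RBCS2B had 7 counts in IAA 1, and CA1 and PRK had 20 each.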

Other observations

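LHCB1.5 (AT2G34420), a further antenna gene, had 0 counts in all 6 libraries, while LHCB1.4 (AT2G34430) had 30, 520 and 300 counts in IAA 1 to IAA 3, against 1018, 34 and 2064 in mock 1 to mock 3. The phosphoglycolate phosphatase genes PGLP1 and PGLP1B had nearly the same counts in each library, 7, 80 and 17 for PGLP1 with IAA and 185, 10 and 211 in mock, and 7, 79 and 18 for PGLP1B with IAA and 186, 10 and 211 in mock. PORB, a protochlorophyllide oxidoreductase gene, had 6.19, 8.30 and 6.05 CPM with IAA and 20.0, 9.44 and 63.1 CPM in mock, groups that did not overlap (edgeR adjusted p = 0.196). The FBA1 gene of chloroplast aldolase had 8, 204 and 12 counts with IAA and 447, 18 and 448 in mock, so mock 1 and mock 3 were alike for it, as they were not for the sum of the 41 genes. GLK1, the paralogue of GLK2, had 7, 9 and 3 counts with IAA and 8, 6 and 25 in mock, too few to pass the filter on low counts in the main edgeR fit. These genes were picked after their values were seen.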
